A study of Mus musculus with 38 samples.

Results

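The 9 neuroblast and early neuron genes Dcx, Tubb3, Map2, Stmn2, Neurod1, Prox1, Elavl3, Elavl4 and Cd24a were followed through RNA, promoter histone marks and DNA methylation of cultured neural stem and progenitor cells (NSPCs). They were chosen by name and taken by symbol from a table of 25965 genes, where 8 of the 9 matched. Map2 is listed there under its older name Mtap2 and was matched by its Ensembl identifier. The cells came from the subventricular zone (SVZ) of male mice aged 3 months (young adult) or 18 months (aged), and grew as floating neurospheres with EGF and FGF2 until passage 2. In C57BL/6JBabr mice, 3 derivations per age, numbered 1 to 3, were made on different days, each from the pooled tissue of 5 mice. Each gave RNA-seq, native ChIP-seq of H3K4me3 and H3K27me3 with Input, and whole-genome libraries after bisulphite treatment (BS) or after oxidation followed by bisulphite (oxBS). In C57BL/10 mice kept in another facility, 1 derivation per age gave RNA-seq alone. No group carried a transgene or a drug, and the cells are a proliferating culture rather than the tissue itself.

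In the adult SVZ, stem cells give rise to dividing progenitors and these to neuroblasts, which migrate to the olfactory bulb and become interneurons. Neuroblasts switch on Dcx, a microtubule-associated protein of migrating cells, and Tubb3, a neuron-restricted tubulin. Neurod1 and Prox1 are transcription factors that act in neuronal differentiation. Growth factors in the medium keep neurospheres dividing, and in such cells many neuronal promoters are CpG-rich, unmethylated and held by H3K27me3 or by the repressor REST at its binding element RE1.

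Promoter sequences are shown for Prox1, Neurod1, Dcx and Elavl4. Promoters (250 bases before to 50 after the start, GRCm38.p6) came from a table made from RefSeq, in which 7 of the 9 genes were matched. Those of Stmn2 and Cd24a were not used here. The median promoter held 7 CpGs (quartiles 3 and 20, over 32851 promoters). The Prox1 promoter (chr1:190170778-190171077, minus strand) held 25 CpGs and the Neurod1 promoter (chr2:79456587-79456886, minus strand) 26. The Dcx promoter (chrX:143933170-143933469, minus strand) held 3. Elavl4 is shown at an upstream start (chr4:110351862-110352161, minus strand, 23 CpGs) and at a start within the gene (chr4:110287478-110287777, minus strand, 5 CpGs). Capitals mark each CpG, the only site at which methylation was read.
Prox1: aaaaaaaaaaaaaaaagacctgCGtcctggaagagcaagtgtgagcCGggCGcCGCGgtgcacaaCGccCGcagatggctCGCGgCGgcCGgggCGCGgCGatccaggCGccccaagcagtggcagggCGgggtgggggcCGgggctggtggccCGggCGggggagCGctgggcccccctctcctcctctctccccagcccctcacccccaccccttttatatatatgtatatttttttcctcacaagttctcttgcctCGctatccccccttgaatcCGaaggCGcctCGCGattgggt
Neurod1: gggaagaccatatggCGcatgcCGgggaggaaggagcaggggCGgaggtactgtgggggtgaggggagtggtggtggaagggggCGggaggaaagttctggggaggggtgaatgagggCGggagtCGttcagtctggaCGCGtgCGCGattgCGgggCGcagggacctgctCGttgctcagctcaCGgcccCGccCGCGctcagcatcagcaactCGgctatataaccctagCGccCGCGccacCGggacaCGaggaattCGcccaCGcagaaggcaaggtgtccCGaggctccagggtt
Dcx: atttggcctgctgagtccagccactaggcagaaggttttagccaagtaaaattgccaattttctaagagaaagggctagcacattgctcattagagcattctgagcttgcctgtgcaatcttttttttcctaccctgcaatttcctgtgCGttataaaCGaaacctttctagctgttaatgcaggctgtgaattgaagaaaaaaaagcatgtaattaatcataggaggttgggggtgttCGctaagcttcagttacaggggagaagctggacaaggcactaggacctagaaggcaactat
Elavl4 upstream: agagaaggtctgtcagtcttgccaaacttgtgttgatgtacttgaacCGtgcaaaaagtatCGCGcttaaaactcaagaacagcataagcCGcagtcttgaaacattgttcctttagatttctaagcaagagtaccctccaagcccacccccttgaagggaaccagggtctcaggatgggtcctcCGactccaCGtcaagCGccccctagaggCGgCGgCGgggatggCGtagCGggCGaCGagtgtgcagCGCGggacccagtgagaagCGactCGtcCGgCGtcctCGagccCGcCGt
Elavl4 within the gene: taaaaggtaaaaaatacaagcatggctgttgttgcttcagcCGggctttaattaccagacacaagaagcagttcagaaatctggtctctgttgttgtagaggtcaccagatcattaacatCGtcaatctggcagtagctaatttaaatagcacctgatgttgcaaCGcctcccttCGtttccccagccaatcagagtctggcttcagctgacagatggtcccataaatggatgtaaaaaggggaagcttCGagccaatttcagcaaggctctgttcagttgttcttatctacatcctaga

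RE1, the binding element of REST, was searched on both strands of the 5 kb window around the start of each gene, as a pattern of 21 letters of which 19 are defined. With up to 4 mismatches, the limit of the search, it was found in 3 of the 9 genes and in 3.045% of 25875 windows. None of the 3 had more than 3 mismatches, which 0.835% of windows meet. A match is a description of the letters, not of binding. The Stmn2 window held the closest match, with 1 mismatch (chr3:8508230-8508250, plus strand, at -1287 from the start), which 0.116% of windows hold. The Elavl3 match (chr9:22053870-22053890, plus strand, at -1857 from the start) and the Neurod1 match (chr2:79454327-79454347, minus strand, at 2414 from the start) had 3 mismatches each. Capitals mark the 21 letters.
Stmn2: ccatTTCAGCACCACGGACAGCGCTtctg
Elavl3: aggcTTCAGCACCACAGACAGCGGTctga
Neurod1: gcccTACGGCACCATGGACAGCTCCcacg

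RNA was deposited as log2 RPM, the reads of a gene scaled to the size of the library. Libraries held between 16952486 and 41053972 reads, and a single read was worth -4.08 in the smallest. Of the 8 NSPC markers, Vim (3390 RPM), Fabp7 (1823 RPM) and Nes (1378 RPM, means over the 6 C57BL/6JBabr libraries) were the most abundant. Prom1 (6.96 RPM) was the lowest of that list. Genes of other lists were also high, with Aldh1l1 (1041 RPM) the highest astrocyte marker and Olig1 (900 RPM) the highest of the oligodendrocyte lineage. Microglial, endothelial and pericyte lists were low. Summed levels in C57BL/6JBabr libraries were 5.24 to 7.69 RPM for the microglial list, 8.77 to 20.8 for the endothelial and 17.1 to 28.4 for the pericyte list. Most of each sum came from a single gene, Csf1r in the microglial, Flt1 in the endothelial and Cspg4 in the pericyte list. The microglial gene C1qa had no read. Cspg4 is also in the oligodendrocyte lineage list, so the pericyte sum is largely a gene counted in both lists. In bulk RNA, fewer cells that express a gene and less RNA of it per cell cannot be told apart.

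Levels of the 9 genes were compared per kb of exon over the 6 C57BL/6JBabr libraries. Cd24a, a surface glycoprotein of neuroblasts and progenitors, was highest, with a mean log2 RPM per kb of 5.37 (96.7% of genes were at or below it). Map2, a dendritic microtubule-associated protein, followed at 4.05 and Prox1, a homeobox transcription factor, at 3.22. The ranges of these 3 genes over libraries did not overlap. The neuron-restricted tubulin Tubb3 (2.21), and Elavl3 (1.88) and Elavl4 (0.99), which encode RNA-binding proteins of the neuronal Hu family, came next. In their ranges over libraries Tubb3 overlapped Elavl3, and Elavl3 overlapped Elavl4. Stmn2, a stathmin of growing axons (-4.25), Dcx (-4.85) and Neurod1, a proneural bHLH factor (-5.27), were at the bottom and overlapped each other. A log2 gap of 5.24 separated Elavl4 from Stmn2, so the 9 genes fell into 6 with clear RNA and 3 near the limit of detection.

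**Figure D1:**
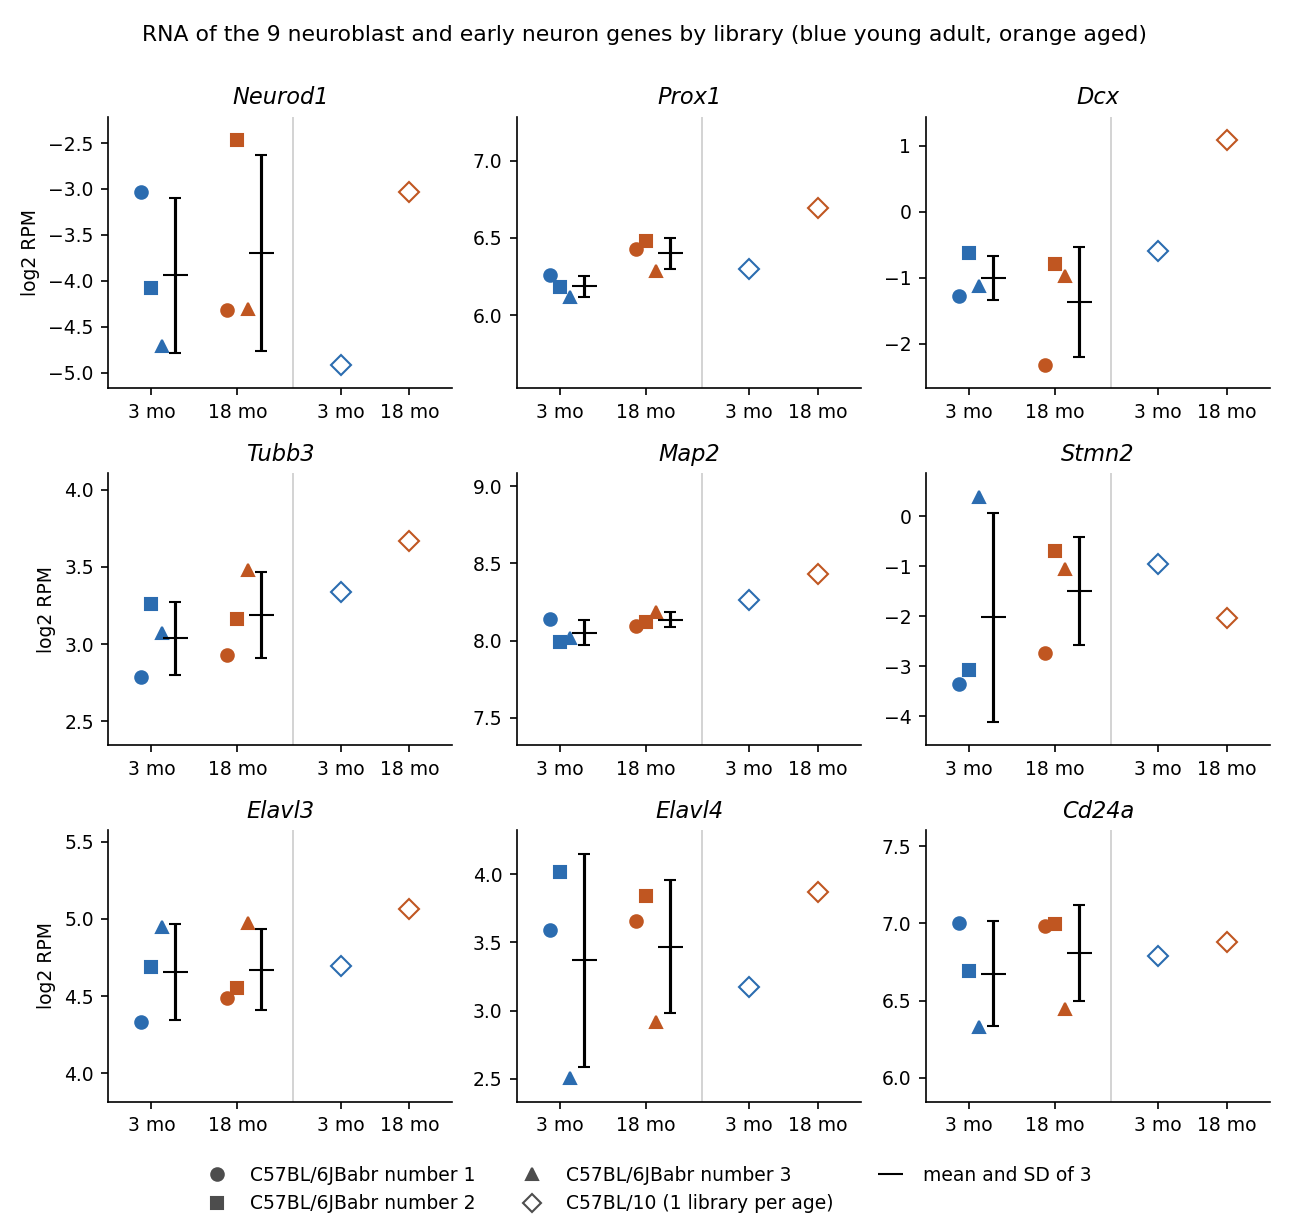
RNA of each gene in every library, in log2 RPM on the vertical axis (each panel has its own range). Filled points are C57BL/6JBabr derivations, with shape for the number, black bars the mean and SD of 3, and open diamonds the C57BL/10 libraries. Prox1 is the 1 gene whose aged C57BL/6JBabr libraries all lie above the young adult ones, and Stmn2 and Neurod1 spread most.

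Ages were compared by limma on log2 RPM over the 14858 genes with a mean of at least -2, which 8 of the 9 genes reached and Neurod1 did not. None of the 8 passed an adjusted p of 0.05, against 0% of all genes tested, and 1 (Prox1) had an unadjusted p under 0.05, as did 258 of all genes. With the replicate number as a block, 0.202% of genes were called higher and 0.296% lower in aged NSPCs, and again none of the 8. Of all genes, 1229 then had an unadjusted p under 0.05. The test without the block takes no account of the derivation numbers, over which 22% of all genes differed. On whole reads edgeR called 0 of all genes (257 at an unadjusted p under 0.05) and DESeq2 4 (219), with none of the 8 among them. The log2 fold change was above 0 in 7 of the 8 (median 0.12), and in 50.6% of all genes (median 0.00).

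Among the transcription factors, Prox1 (chr1:190118038-190170680) lay at 6.26, 6.18 and 6.12 (log2 RPM) in the young adult libraries and at 6.43, 6.48 and 6.29 in the aged ones. The lowest aged library lay above the highest young adult one, which 3.14% of all genes tested showed, and 2.05% showed the opposite. Its log2 fold change was 0.21 (standard error 0.09, limma unadjusted p = 0.0373, adjusted p = 0.99998; with the block, unadjusted p = 0.00684 and adjusted p = 0.273). The difference was positive in all 3 numbers and ranged from 0.17 to 0.27 with each library left out. Neurod1 (chr2:79452521-79456751) had 5, 1 and 1 reads in young adult and 2, 5 and 2 in aged libraries, so a difference was not detectable at this depth.

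Dcx (chrX:143855842-143933311) had 17, 11 and 12 reads in young adult and 8, 16 and 20 in aged libraries, that is a log2 RPM of -1.27, -0.62 and -1.12 against -2.32, -0.79 and -0.98. Aged library 1 was the lowest and the ages overlapped. The log2 fold change was -0.36 (standard error 0.47, limma adjusted p = 0.99998), and without aged library 1 it was 0.12. The exact 95% Poisson interval of its 8 reads was 3.45 to 15.8, so counting error alone is wide here.

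Of the other cytoskeletal genes, Tubb3 (chr8:123411424-123422015) lay at 2.79, 3.26 and 3.07 (log2 RPM) when young adult and at 2.93, 3.16 and 3.48 when aged, and the ages overlapped. Its log2 fold change was 0.15 (standard error 0.18). Map2 (chr1:66175273-66442583) lay between 7.99 and 8.14 in young adult and between 8.10 and 8.19 in aged NSPCs, and had the smallest SD of the 9 over the 6 libraries (0.07). Its log2 fold change was 0.08 (standard error 0.09). Stmn2 (chr3:8509527-8561604) had 4, 2 and 34 reads in young adult and 6, 17 and 19 in aged libraries. Young adult library 3 held most of its young adult reads, and the log2 fold change of 0.52 (standard error 1.01) turned to -0.15 without young adult library 1 and to -0.31 in edgeR.

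Elavl3 (chr9:22015005-22052023) lay at 4.33, 4.69 and 4.95 (log2 RPM) when young adult and at 4.49, 4.56 and 4.97 when aged, with a log2 fold change of 0.01 (standard error 0.18). Elavl4 (chr4:110203722-110351909) had 3.59, 4.02 and 2.504 against 3.66, 3.84 and 2.92, and a log2 fold change of 0.10 (standard error 0.39). Cd24a (chr10:43579169-43584262) had 7.01, 6.69 and 6.33 against 6.98, 6.99 and 6.45, and a log2 fold change of 0.13 (standard error 0.20). With the replicate number as a block, the standard errors were smaller, at 0.08 for Elavl3, 0.12 for Elavl4 and 0.07 for Cd24a. The limma adjusted p was then 0.980, 0.890 and 0.711. In each of these genes the means of the 3 derivation numbers lay further apart than the means of the ages. There are more of them and each rests on fewer libraries, so this does not rank number above age.

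That spread over derivation numbers was tested by an F test in limma, with age in the model. It passed for 3 of the 8 genes tested (37.5%) against 22% of all genes. Elavl4 was lowest in number 3, where its mean log2 RPM was 2.71 against 3.62 and 3.93, a 2.33-fold range (limma adjusted p = 3.81e-04). Cd24a was also lowest in number 3, at 6.39 against 6.99 and 6.84, a 1.52-fold range (limma adjusted p = 0.00143). Elavl3 was highest in number 3, at 4.96 against 4.41 and 4.62, a 1.47-fold range (limma adjusted p = 0.00641). Over the 6 libraries the log2 RPM of the sister genes Elavl3 and Elavl4 had a Pearson correlation of -0.72, and that of Elavl3 and Cd24a was -0.95, given as descriptions of libraries that share derivation numbers.

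Stmn2 had the widest range over numbers (6.55-fold) and missed the threshold (adjusted p = 0.0517 from limma), while edgeR on whole reads gave 0.0311. Tubb3 (adjusted p = 0.0943), Dcx (0.192), Prox1 (0.343) and Map2 (0.828) did not pass in limma. Marker lists also moved with the number. The summed level of the ependymal list was 56.6 RPM in number 1, 92.0 in number 2 and 129 in number 3, that of the NSPC list 7934, 6928 and 6537, and their part in the differences between numbers was not tested.

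In C57BL/10, with 1 library per age and so no replicate check, Dcx had 18 reads in the young adult and 52 in the aged library. That is a log2 RPM of -0.59 against 1.08 and a ratio of 3.19, with an exact 95% binomial interval of 1.84 to 5.80 that covers counting error only. Elavl4 lay at 3.17 and 3.87, a 1.62-fold difference. These were the 2 of 8 genes past 1.5-fold higher in the aged library, against 5.16% of all genes, and Stmn2 (14 and 6 reads) was past it on the lower side, against 5%. Prox1 lay at 6.30 and 6.69, Tubb3 at 3.34 and 3.67, Elavl3 at 4.69 and 5.06, Map2 at 8.26 and 8.43, and Cd24a at 6.79 and 6.88. Values were higher in the aged library in 7 of the 8 genes, and in 47.9% of all genes tested. Neurod1 had 0 and 3 reads, too few for a fold.

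Oligodendrocyte lineage and astrocyte markers differed between the same C57BL/10 libraries. The summed oligodendrocyte lineage list was 1351 RPM in the young adult and 1644 in the aged library (median log2 difference 0.87 over 8 genes), and the astrocyte list 2541 and 1857. Their part in the values of the 9 genes was not tested. The age difference of Dcx in C57BL/10 exceeded that in C57BL/6JBabr by 2.03 on the log2 scale (standard error 0.91). The interaction of age and strain in limma over 8 libraries, a test added after the values were seen, gave an unadjusted p of 0.0551 and an adjusted p of 0.999999. With 1 C57BL/10 library per age, the standard error and p rest on the spread of the C57BL/6JBabr libraries alone and assume that C57BL/10 varies alike, and Dcx was tested because its ratio stood out. It called 1 of all genes, the pseudogene Actg-ps1, named after its values were seen.

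**Figure D2:**
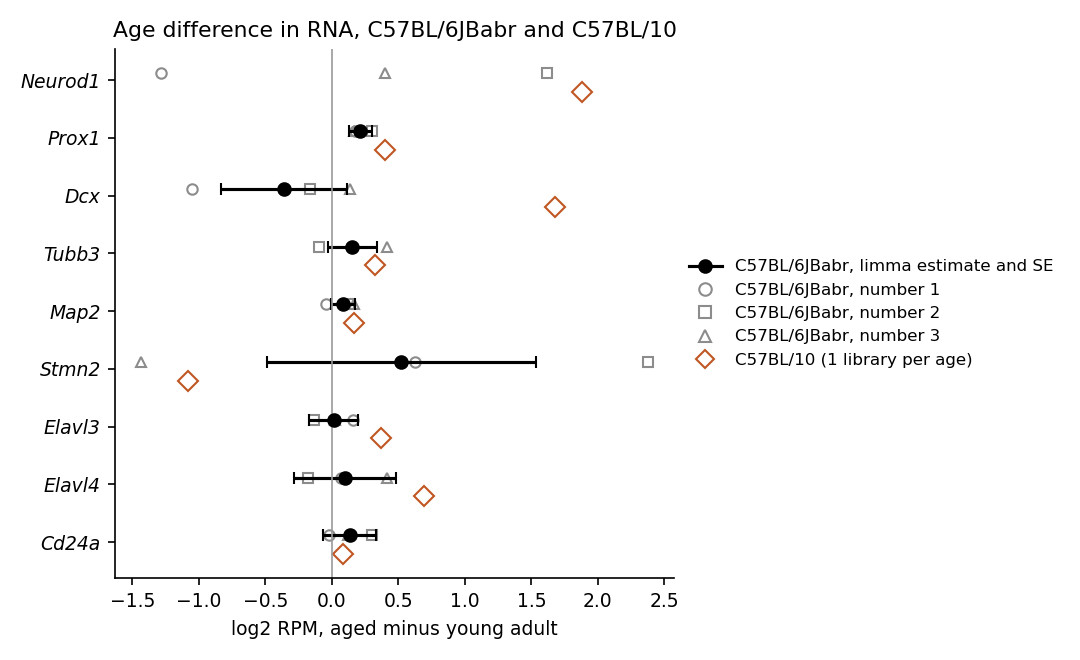
Difference in log2 RPM, aged minus young adult, for each gene. Black points and bars are the limma estimate and its standard error over 3 against 3 C57BL/6JBabr libraries, grey open symbols the difference within each number, and orange diamonds the C57BL/10 pair. The Prox1 differences all lie right of 0, and Dcx lies at -0.36 in C57BL/6JBabr and at 1.68 in C57BL/10.

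Strain was compared in limma with age in the model, 2 C57BL/10 against 6 C57BL/6JBabr libraries, and cannot be told apart from facility and cohort. Of all genes, 18.2% were called higher and 11.5% lower in C57BL/10 (61.2% of calls higher), but in edgeR, which scales by TMM, 24.5% of calls were higher. The median of all genes was 0.17 on the log2 scale in limma and -0.006 in edgeR, a difference of 0.18, so limma values are read against 0.17. These runs differ in tool as well as in scaling, and with quantile normalization in limma 65.4% of calls were higher. Of the 8 genes, only Map2 passed, at 8.35 against 8.09, a log2 difference of 0.26 (standard error 0.08, limma adjusted p = 0.0372). In edgeR its difference was 0.08 (adjusted p = 0.574). Leaving out young adult library 1 or aged library 3 kept it under the threshold, and leaving out any other library did not (limma adjusted p from 0.0563 without young adult library 3 to 0.288 without the aged C57BL/10 library). Dcx was the furthest apart, at 0.24 against -1.19, a log2 difference of 1.43 (standard error 0.54, limma adjusted p = 0.0743), which was 0.41 without the aged and 2.45 without the young adult C57BL/10 library. Quantile normalization brought Dcx under the threshold (limma adjusted p = 0.0422) and took Map2 above it (0.0662).

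Around the 9 genes, 6 wider lists of the neuronal programme were followed between ages in C57BL/6JBabr. Beside a median of 0.00 over all genes, the median log2 fold change was 0.14 in 15 tested proneural and neuroblast transcription factors (12 above 0), 0.07 in 24 neuronal cytoskeleton genes (17 above 0) and 0.14 in 12 neuronal RNA-binding proteins (10 above 0). It was 0.24 in 14 neuroblast adhesion and migration genes (11 above 0), -0.04 in 6 mature neuron markers (2 above 0) and 0.04 in 10 repressors of neuronal genes (6 above 0). Only 15 of the 30 listed transcription factors and 6 of the 12 listed mature neuron markers reached the mean log2 RPM needed for testing. Nearly all genes of the other lists did. None of the genes tested in these lists passed limma without the block.

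With the block 2 genes of these lists passed, 1 higher and 1 lower, beside the 0.202% and 0.296% of all genes called so. Reln, the secreted migration cue reelin, rose by 0.82 on the log2 scale, with a mean log2 RPM of 2.10 ± 0.66 in young adult libraries and of 2.92 ± 0.58 (SD over 3) in aged ones. The limma adjusted p was 0.0409 with the block and 0.99998 without. Gad2, a GABA-synthesizing enzyme, fell by 0.42 on the same scale, from 5.31 ± 0.15 to 4.89 ± 0.23 (SD over 3), with a limma adjusted p of 0.0425 with the block and of 0.99998 without. In C57BL/10, Reln differed by 0.93 and Gad2 by -0.74 on the log2 scale. Dlx2, a homeobox factor of SVZ neurogenesis, had the lowest fold change of the transcription factors, at -0.79. Its limma adjusted p was 0.138 with the block and 0.99998 without, and in C57BL/10 it differed by -1.11. Its neighbour Dlx1 (-0.46) followed, and Bcl11a (0.71) and Bcl11b (0.42) had the highest fold changes. The lowest and highest of the other lists were Nefl (-0.24), Map1b (-0.19), Basp1 (0.34) and Cdk5r1 (0.35) for the cytoskeleton, and Celf4 (-0.35), Msi1 (-0.06), Srrm4 (0.41) and Rbfox3 (0.67) for RNA-binding proteins.

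In the adhesion list, Robo2 (-0.22) and Igfbpl1 (-0.07) were lowest and Dab1 (0.49), an adaptor of reelin signalling, followed Reln. Gad1 (-0.26), Snap25 (0.07) and Syn1 (0.21) were the other extremes of the mature neuron markers. Rest itself differed by 0.10 on the log2 scale (standard error 0.10), from a mean log2 RPM of 4.92 ± 0.07 to 5.02 ± 0.12 (SD over 3), and Rcor2 (0.26), Hes1 (0.14), Id1 (-0.11) and Id4 (-0.29) were the extremes among repressors. Beside these, the astrocyte list had a median log2 fold change of -0.20 (1 of 7 genes above 0), with summed levels of 1996 to 2344 RPM in young adult and of 1787 to 1985 in aged libraries. The NSPC list had a median of -0.04, the oligodendrocyte lineage list of 0.11 and the ependymal list of -0.11, and their part in the neuronal lists was not tested.

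Over all 8 libraries, the genes whose log2 RPM followed the mean of the 9 standardized genes most closely were Myst4 (Pearson correlation 0.98), Arid1b (0.97), Otud1 (0.97), Wdfy3 (0.97) and Rab6b (0.97). Those most like Dcx alone were Pacrgl (0.94), Apol8 (0.94), Dlg2 (0.94), Clint1 (0.93) and Atl1 (0.93). Both are descriptions over 8 libraries that share derivation numbers, strains and depth.

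For ChIP-seq, 1 value per age and mark was deposited, over the 3 replicates, in windows of 5 kb around each transcript start. Differences therefore had no replicate error and no test. H3K4me3 marks active or poised promoters and H3K27me3 is the mark of Polycomb repression. The 9 genes had 46 of the 72923 windows, and 1 window per gene, that of the transcript with the lowest number, was used first. A window was counted where the ages differed at least 1.5-fold and either age exceeded a log2 RPM of 1, called the level here.

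In both ages, 6 of the 9 genes had both marks above a log2 RPM of 1, against 19.5% of 25888 genes in young adult and 18.9% in aged NSPCs. The level lies near the median Input, and in aged NSPCs H3K27me3 was as low as the Input at Prox1 (1.04 beside 1.05) and at Elavl4 (1.09 beside 1.08). Only H3K4me3 was above 1 at 2 genes, Map2 and Cd24a, and neither mark at Dcx. Neurod1 had 4.97 (young adult) and 4.99 (aged) of H3K4me3 with 5.65 and 5.68 of H3K27me3, where 98.8% of genes had as little H3K27me3 in young adult NSPCs. Stmn2 had 3.40 and 3.15 of H3K4me3 with 4.43 and 4.60 of H3K27me3 (97.0% of genes at or below in young adult). Tubb3 had 4.12 and 4.27 with 2.64 and 2.47. Elavl3 and Elavl4 lay close to the level for H3K27me3, at 1.58 and 1.77 and at 1.12 and 1.09, with 4.49 and 4.77 and with 5.42 and 5.57 of H3K4me3.

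Prox1 and Cd24a carried the most H3K4me3. At Prox1 it was 6.81 and 7.10 (99.6% of genes at or below in young adult), and at Cd24a 6.49 and 6.82 (98.5%) with 0.13 and 0.48 of H3K27me3. At Dcx, H3K4me3 was 0.33 and -0.86 and H3K27me3 0.51 and 0.62, both under the level in both ages, beside an Input of -0.24 in each, where the median Input of all genes was 0.93 and 0.97. With the Input subtracted, H3K27me3 at Dcx was 0.74 and 0.86, close to that at Elavl3 (0.82 and 0.76). By that level, which takes no account of the Input, the 3 genes near the limit of RNA detection differed. H3K27me3 was high at the CpG-rich Neurod1 and at Stmn2, and neither mark was above the level at the CpG-poor Dcx. Dcx lies on chrX in cells of male mice, and the part of this in its low Input and marks was not tested. With the Input subtracted, H3K27me3 at Dcx was higher than at Elavl4 (0.43 and 0.007), which was counted with both marks.

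**Figure D3:**
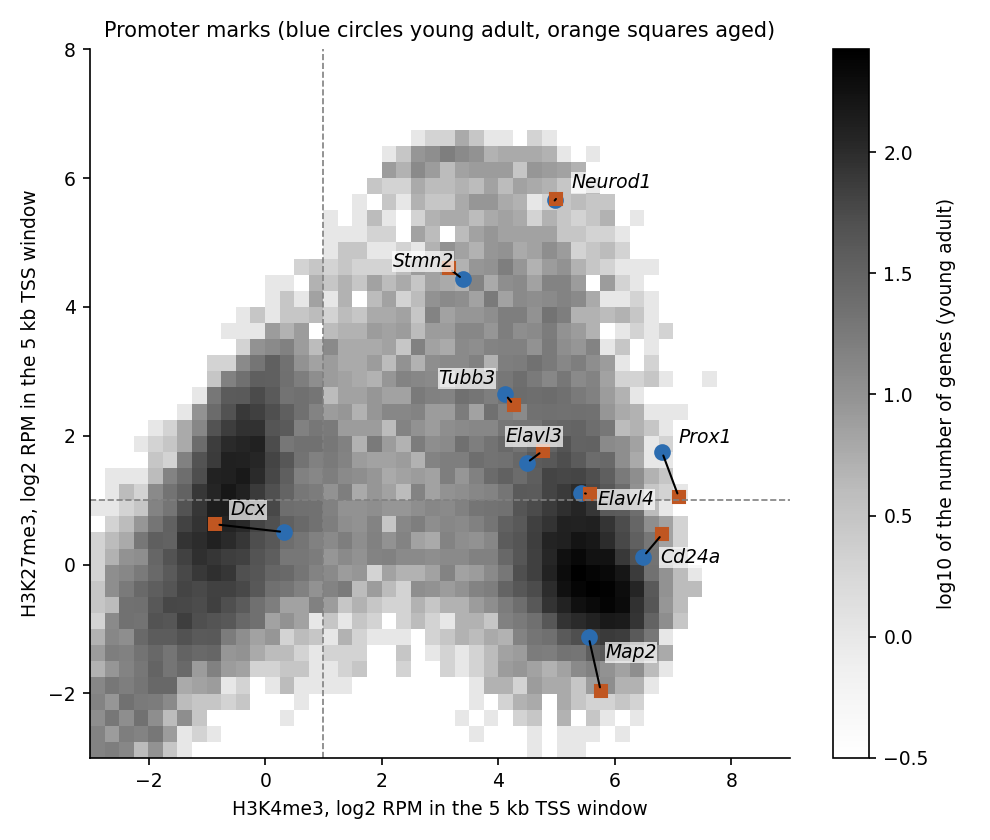
H3K4me3 (horizontal) against H3K27me3 (vertical), both in log2 RPM over the 5 kb window, with the number of genes per bin in grey for young adult NSPCs. Blue circles are the 9 genes in young adult and orange squares in aged NSPCs, joined by a line, and dashed lines mark a log2 RPM of 1. Neurod1 lies at 4.97 and 5.65 in young adult NSPCs, Dcx left of the line, and Prox1 moves down in H3K27me3.

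Between ages, none of the 9 genes was past the rule for H3K4me3 (0.0618% of genes were higher and 0.162% lower). H3K4me3 was higher in aged NSPCs at 7 of 9, all but Dcx and Stmn2, beside a median of 0.21 on the log2 scale over all windows above the level. With the Input subtracted, Map2 was past the rule for H3K4me3 (4.64 in young adult and 5.31 in aged NSPCs). The share of counted genes that were higher then went from 27.6% to 89.3%. For H3K27me3, 1 gene of 9 was past the rule, Prox1, against 0.858% of genes lower and 0.749% higher. Its H3K27me3 went from 1.75 to 1.04, a 1.64-fold lower value, with an Input of 1.01 and 1.05. The next start of Prox1 (Prox1-002) had 1.26 and 0.60, and the third (Prox1-003) 0.42 and -0.10, both lower in aged NSPCs. Their windows overlap that of the first start and share most of its reads, so they are no separate evidence. With the Input subtracted, H3K27me3 at the first start was 0.74 in young adult and -0.002 in aged NSPCs, a difference of -0.74, and the call was lost because both values lay under the level.

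The marks of Map2 differed by start. At the internal start (Mtap2-001, at chr1:66321719), H3K4me3 was 5.55 and 5.76 and H3K27me3 -1.13 and -1.97. At the 5 starts of its 5′ end (Mtap2-003, Mtap2-007, Mtap2-011, Mtap2-012 and Mtap2-013, whose windows overlap and share their reads) H3K4me3 was 5.50 to 5.52 in young adult and 5.80 to 5.82 in aged NSPCs. H3K27me3 there went from between -0.20 and -0.08 to between 1.00 and 1.08, a 2.12-fold to 2.44-fold higher value that was just past the level. With the Input subtracted it went from between -1.21 and -1.09 to between 0.14 and 0.28, under the level in both ages, and the call was lost. Over all windows, 0.573% were past the rule on this side.

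DNA methylation was read from calls at CpGs, summed over regions. BS calls hold the sum of 5mC and 5hmC, whereas oxBS calls hold 5mC. The oxBS libraries held 13616283 to 21389132 calls, 1.204 to 1.32 per covered position, and the windows of the 9 genes held 19 to 247 calls per library. Ages were compared by fitting methylated and unmethylated calls of the 6 libraries in a quasi-binomial model. None of the 9 windows had an adjusted p under 0.05, against 0% of 23775 windows (1279 had an unadjusted p under 0.05), and none of the 9 gene bodies, against 0% of 21810 (1045).

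The windows of 8 of the 9 genes lay below the median of all windows (35.8% 5mC). In the 300-base promoters, over all 6 libraries, 0 of 195 calls were methylated in the Prox1 promoter, which allows a share of up to 1.54% (3 calls of the total rather than an exact interval), and 2 of 167 in that of Neurod1 (exact 95% interval 0.145% to 4.26%). The upstream Elavl4 promoter held 0 of 81 (up to 3.70% by the same rule of 3 calls), and the start within the gene 25 of 36 (69.4%, exact 95% interval 51.9 to 83.7). These intervals and limits cover counting error only. Tubb3 held 1 methylated call of 172, Map2 1 of 236 and Elavl3 5 of 204. The Map2 promoter is that of its 5′ end, a different start from the internal one (Mtap2-001) of its window. At Dcx 3 of 9 calls were methylated (33.3%, 7.49 to 70.1), too few to place it. In BS libraries the upstream start of Elavl4 held 3 methylated calls of 178 and the start within the gene 36 of 49. H3K4me3 in the window of the start within the gene (Elavl4-003) was 4.08 and 4.26.

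Over the windows of 5 kb, mean 5mC in young adult and aged NSPCs was 11.5% ± 4.3 and 11.6% ± 0.91 at Neurod1, 8.50% ± 2.6 and 11.7% ± 1.9 at Stmn2, and 16.2% ± 4.2 and 18.5% ± 4.3 at Prox1 (SD over 3 libraries). It was 22.3% ± 11.1 and 24.5% ± 2.9 at Tubb3, 26.8% ± 5.2 and 19.8% ± 4.1 at Map2, and 14.5% ± 2.0 and 12.2% ± 1.7 at Elavl3. Elavl4 had 18.9% ± 8.3 and 18.3% ± 2.6, and Cd24a 10.7% ± 2.7 and 10.2% ± 2.0. At all of these the ages overlapped, and the adjusted p from the quasi-binomial model was at least 0.963.

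**Figure D4:**
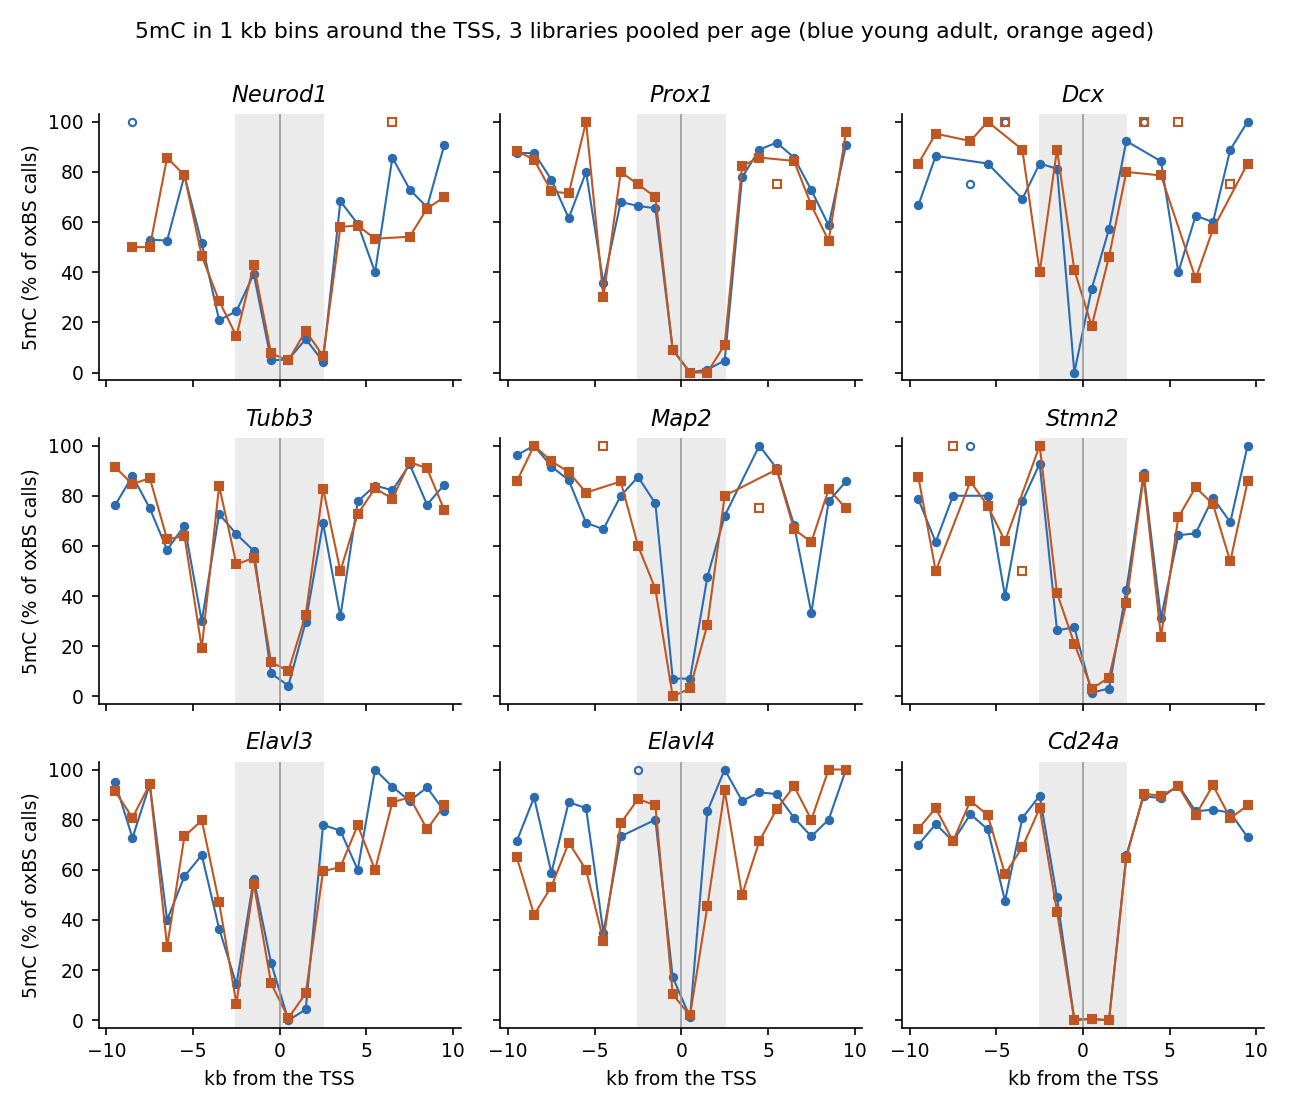
Percentage of oxBS calls methylated in bins of 1 kb, against distance from the start in kb, with the calls of 3 libraries pooled per age. Open symbols are bins with fewer than 5 calls, and the grey band is the window of 5 kb. In the bin just after the start 5mC is at most 10.2% in both ages at 8 genes, and at Dcx it is 33.3% of 12 and 18.5% of 27 calls.

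Of these 9 windows only that of Dcx did not overlap between ages, with 69.7%, 63.2% and 65.4% in young adult and 41.9%, 44.4% and 48.3% in aged libraries, over 19 to 33 calls each. Of all windows, 4.5% did not overlap with aged lower and 5.93% with aged higher. The difference was -21.2 percentage points (unadjusted p = 0.0296 and adjusted p = 0.918 from the quasi-binomial model, exact permutation p = 0.1, two-sided and the smallest that 3 against 3 allows). Once the ages do not overlap, that permutation p is fixed, so it adds nothing to the separation. With each library left out the difference ranged from -22.9 to -19.4. In BS libraries it was -6.22, with 80.0%, 67.4% and 48.8% against 60.5%, 61.3% and 55.8%, and the ages overlapped.

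Over all 46 windows of the 9 genes, 10 did not overlap between ages in oxBS libraries, 8 with aged lower and 2 with aged higher, given as a description with no test. Over the 69710 windows of all transcripts with at least 10 calls in each library, 4.49% did so with aged lower and 5.69% with aged higher. Of the 10, 6 were the windows of Dcx, which overlap each other and are 1 region. At Map2, the overlapping windows of Mtap2-016 and Mtap2-022 differed by -13.3 and -13.7 percentage points and that of Mtap2-020 by 5.53, and at Elavl4 that of Elavl4-006 by 8.96.

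The calls of the Dcx window were not spread alike in both ages. Within 1 kb of the start lay 21.2%, 15.8% and 26.9% of its calls in young adult and 51.6%, 74.1% and 44.8% in aged libraries. Near the start, 4 of 17 calls were methylated in young adult (23.5%, exact 95% interval 6.81 to 49.9) and 14 of 49 in aged NSPCs (28.6%, 16.6 to 43.3). In the outer part, 48 of 61 (78.7%, 66.3 to 88.1) and 25 of 38 (65.8%, 48.6 to 80.4) were methylated. The outer part had 76.9%, 75% and 84.2% in young adult and 73.3%, 57.1% and 62.5% in aged libraries, each aged one below each young adult one. Within each part the pooled ages differed by 5.04 and -12.9 percentage points, less in size than over the whole window. The intervals overlapped in both parts, but they cover only the counting error of calls pooled over 3 libraries and are no test between ages. The part of this spread in the difference over the window was not tested, and the split at 1 kb was added after the values were seen.

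**Figure D5:**
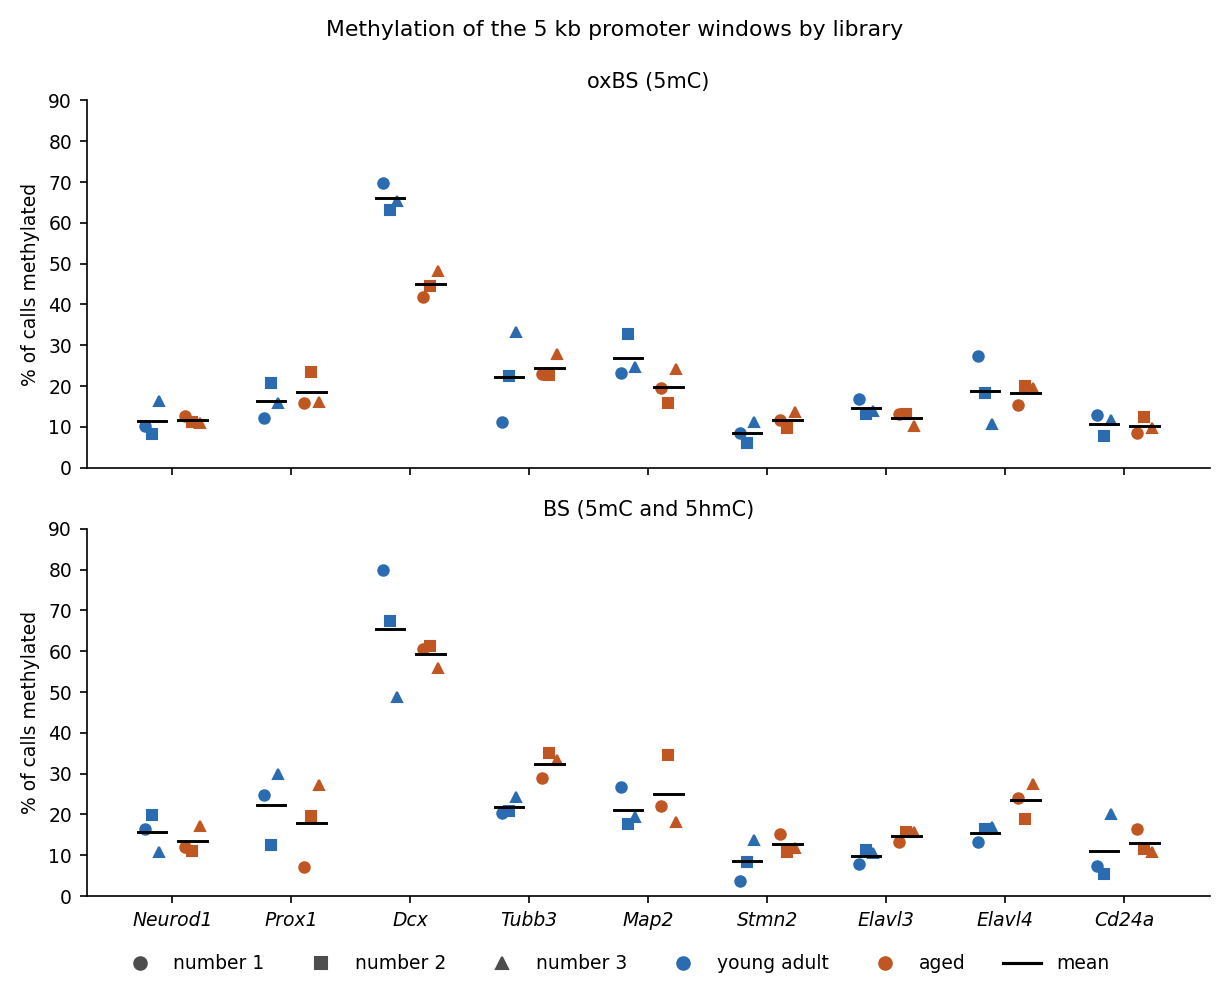
Percentage of calls methylated in the window of 5 kb for each gene and library, in oxBS (top) and BS (bottom) libraries. Blue is young adult, orange aged, shape the derivation number and black lines the mean. The ages separate at Dcx in oxBS and overlap there in BS libraries.

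In BS libraries 3 of the 9 windows did not overlap between ages, all with aged higher, as in 5.26% of all windows (4.49% had aged lower). Tubb3 had 20.4%, 20.9% and 24.3% against 29.0%, 35.1% and 33.3%, a difference of 10.6 percentage points (unadjusted p = 0.0114 and adjusted p = 0.990 from the quasi-binomial model), where oxBS gave 2.21 with overlap. Elavl3 and Elavl4 were 4.94 and 7.90 points higher in aged BS libraries, where oxBS gave -2.33 and -0.56. The BS minus oxBS percentage, the estimate of 5hmC, was -0.42 ± 9.2 and 7.99 ± 3.9 percentage points at Tubb3 (SD, n = 3 each). At Dcx it was -0.65 ± 14 and 14.3 ± 5.9, and in young adult libraries it ranged from -16.5 to 10.3, so values below 0 show the size of the sampling error here.

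Over gene bodies, 5mC was low at Neurod1 (14.4% ± 3.7 in young adult and 15.1% ± 2.5 in aged NSPCs) and Cd24a (29.2% ± 5.0 and 26.2% ± 5.1), and near the median of all bodies (68.9%) or higher at Map2 (75.3% ± 0.20 and 76.1% ± 1.1) and Elavl4 (75.2% ± 0.70 and 76.5% ± 2.4), each as SD with n = 3. Dcx had 74.5% ± 5.6 and 72.2% ± 1.3, Stmn2 66.2% ± 4.6 and 67.0% ± 2.3, and Prox1 64.5% ± 2.1 and 65.9% ± 4.6 (SD, n = 3 each). Elavl3 had 58.0% ± 1.1 and 62.5% ± 3.4, the largest difference of the 9 in size (4.50 percentage points, unadjusted p = 0.0997 and adjusted p = 0.978 from the quasi-binomial model). Tubb3 had 56.4% ± 9.8 and 54.7% ± 9.2, with number 3 at 67.6% and 65.2% and the other numbers between 48.7% and 50.8%. The ages overlapped in all 9 gene bodies in oxBS libraries, where 4.36% of all bodies were lower in every aged library and 5.46% higher. In BS libraries they did not overlap at Map2 alone of the 9 (4.02% of all bodies were lower in every aged library and 5.26% higher), with 76.3%, 76.4% and 75.8% in young adult and 73.5%, 74.6% and 75.2% in aged NSPCs (unadjusted p = 0.0706 and adjusted p = 0.993 from the quasi-binomial model), where oxBS gave a difference of the other sign. The largest BS body difference of the 9 was at Tubb3, with 47.7% ± 7.8 and 59.7% ± 4.7 (SD, n = 3 each), where the ages just overlapped. Its unadjusted p was 0.0301 and its adjusted p 0.993 from the same model, and oxBS gave a difference of the other sign there too.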

How the data were processed

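RNA, histone marks and DNA methylation were measured in young adult and aged NSPC cultures. The 9 genes and the wider lists were chosen with earlier results of these data known, so they are no independent evidence. Per the labels, the authors used STAR 2.3.0 among the tools and deposited log2 RPM per gene, as well as log2 RPM of ChIP windows on GRCm38 (Bowtie2 2.2.5 is among the tools named), with 1 column per age and mark over the replicates. For BS and oxBS libraries the authors deposited Bismark (0.12.5) files with methylated and unmethylated counts per position and the percentage methylated, from which the counts were summed over regions.

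Whole reads were recovered from the RPM: of values worth up to 1000 reads, 100% came out whole within 0.02 reads, and genes without reads had been set to 0.9 reads. Genes averaging -2 or more in log2 RPM were tested in limma 3.58.1 (R 4.3.3) with Benjamini-Hochberg adjustment over all genes, without the block, and edgeR 4.0.16 and DESeq2 1.42.0 were run on the whole reads. Age was tested in the 6 C57BL/6JBabr libraries, and strain in all 8. Same-numbered libraries deviated together in RNA (correlations of 0.659, 0.179 and 0.724 over 14858 genes), so the numbers pair the RNA libraries. In oxBS windows they were 0.003, -0.002 and 0.033, and the numbers were not taken as pairs there. With few calls per window, such low correlations cannot show that the oxBS libraries are unpaired. Methylation regions needed 10 calls in every oxBS library and were tested in a quasi-binomial model with a dispersion of at least 1. The models were tested on simulated data that held no effect of the derivation number. Those runs therefore do not show how the test without the block behaves on these libraries. Exact intervals are Clopper-Pearson or Poisson intervals.

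All 9 genes are named whatever their values. Of each wider list, the 2 genes with the highest and the 2 with the lowest fold change, those past the threshold and Rest are named. Alternatives were the block, no filter, a pseudocount of 0.5 RPM, quantile normalization, other tools, each library left out, 5 or 20 calls, BS calls, other windows, Input subtraction and 2-fold. Of the positions on chromosome 19, 99.87% lay at a CpG of GRCm38.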

Additional observations from a re-analysis of the deposited data

How the results depend on the processing

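Between ages, limma called 0 genes, 74 with the replicate block and 4 came from DESeq2. None of the 8 genes tested was called by any of these. The block is a pairing that the RNA libraries bear out, and it changed no call of the 8. With each library left out, the log2 fold change went from -0.65 to 0.12 for Dcx, -0.15 to 1.72 for Stmn2, -0.15 to 0.16 for Elavl3, -0.33 to 0.42 for Elavl4 and -0.040 to 0.31 for Cd24a. Stmn2 was -0.31 in edgeR and -0.29 in DESeq2. Without the filter the derivation number called 5 of the genes instead of 3, adding Stmn2 and Tubb3.

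Between strains, edgeR called 2572 genes and limma 4405 (1425 to 4638 with each library left out, the lowest without the young adult C57BL/10 library and 1851 without the aged one). Of the calls, 61.2% were higher in C57BL/10 in limma and 24.5% in edgeR. Of the members tested limma called 1, edgeR 0 and no filter 0, and leaving out libraries gave 0 to 1. In edgeR the difference was -0.44 for Stmn2, -0.14 for Elavl4 and -0.11 for Cd24a, and with each library left out it went from -0.54 to 1.06 for Stmn2 and from -0.20 to 0.40 for Elavl4.

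For H3K4me3, 58 windows were past 1.5-fold, 636 with the Input subtracted (1 of the 9 genes, Map2) and 6 at 2-fold. The share higher in aged NSPCs was 27.6%, 89.3% with the Input subtracted and 45.5% after quantile normalization. For H3K27me3, 416 were past it and 43 at 2-fold. Prox1 was the 1 gene called, and 0 were with the Input subtracted, at 2-fold or in the window with the highest H3K4me3.

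No oxBS window or body passed in any alternative run. Calls from BS libraries turned the sign of the window difference at Map2 (3.71 percentage points), Neurod1 (-2.28), Prox1 (-4.37), Elavl3 (4.94), Elavl4 (7.90) and Cd24a (1.92), and of the body difference at Tubb3 (11.9996), Map2 (-1.71), Stmn2 (-1.70), Prox1 (-0.372) and Elavl4 (-0.509). So did 500 bp on either side of the start at Neurod1 (-0.910), Elavl3 (0.0683) and Cd24a (0.654). With each library left out, window differences went from -3.38 to 7.74 at Tubb3, -1.60 to 2.503 at Neurod1, -0.253 to 4.44 at Prox1, -4.59 to 3.74 at Elavl4 and -1.999 to 0.5499 at Cd24a. Body differences went from -3.94 to 0.934 at Dcx, -7.03 to 3.90 at Tubb3, -0.532 to 3.49 at Stmn2, -1.06 to 2.64 at Neurod1 and -0.772 to 3.82 at Prox1. Dcx had too few calls for 20 per library, and Dcx, Map2 and Stmn2 for 500 bp. The causes were not tested. Few reads limit what can be detected for Dcx, Stmn2 and Neurod1 in RNA, and few calls for the methylation of Dcx. Stmn2 also spread beyond counting error, with 34 reads (exact interval 23.5 to 47.5) against 2 (0.242 to 7.22) in young adult libraries 3 and 2.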
